A study of Mus musculus with 8 samples.

Results

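The 4 WT libraries of the series, of 8 in all, hold RNA of effector Treg (eTreg) cells from tumors and from spleens, and the tissues were compared across all genes. They were chosen by their labels, as the 2 WT tumor and the 2 WT spleen libraries, and no measured value entered the choice. WT mice were C57BL/6 Foxp3YFP-Cre animals, in which YFP fused to Cre recombinase is made by Foxp3-expressing cells, and they carry no floxed Prdm1. Mice were 5 to 10 weeks old, per the study's methods, bore subcutaneous B16-OVA tumors (a B16 melanoma line that makes ovalbumin) of at most 1.5 cm3, and received NP-OVA by intraperitoneal injection on days 0 and 7. Cells were sorted as CD45+CD3+CD4+CD44+YFP+, from the tumor (tumor-infiltrating lymphocytes, TIL) or from the spleen. The other 4 libraries are TIL and splenic eTreg cells of KO mice, which differ by floxed Prdm1 alleles (Prdm1fl/flFoxP3YFP-Cre). Whether a library pooled several mice, and whether the TIL and splenic libraries came from the same mice, is not given in the sources used here, so p-values measure the spread between these libraries, which may be technical. The tissues were also handled differently: tumors were digested with collagenase/Dispase at 37 °C for 1 h and spun on a density gradient, and spleens were mashed and treated with red cell lysis buffer. Splenic cells were then enriched for CD4+ T cells on magnetic microbeads before the sort, a step not given for tumors, so tissue and handling cannot be told apart.

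Treg cells are CD4 T cells that express Foxp3 and restrain immune responses through surface receptors such as CTLA4, through capture of IL-2 and through cytokines such as IL-10. On activation they leave the resting, recirculating state that KLF2 and TCF1 maintain and become eTreg cells, which can settle in tissues and tumors and there carry chemokine receptors such as CCR8. Tumors are often poor in oxygen and glucose, and cells respond to low oxygen through HIF1, which raises glycolysis enzymes.

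The WT libraries held 28269666 to 30854014 counts on genes, and the floor of detection was set at 3 counts, or 0.0884 to 0.108 CPM. CPM are counts scaled by library size and edgeR's TMM factor, and pairs of values are replicates 1 and 2 in that order. Replicates of a tissue differed far beyond counting noise, with a chi-square of 315.3 (spleen) and 113 (TIL) per degree of freedom, and were kept as separate samples. The splenic replicates also differed with gene length: the median log2 ratio of replicate 1 over replicate 2 ran from -0.996 in the shortest of 5 length classes to 0.589 in the longest. For TIL the same ratio was -0.0779 and -0.0284. Xist was at 73.1 to 268 CPM and genes of the Y chromosome held at most 1 count in each of the 4 libraries, as in cells of female mice.

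In edgeR's quasi-likelihood test 981 of the 16427 genes (5.97%) were called, with an adjusted p under 0.05 and a log2 fold change above 1 or below -1. Of these, 674 genes (4.10% of all tested) were higher and 307 (1.87%) were lower in the TIL libraries, with a median log2 fold change over all genes of -0.04. Both TIL libraries lay above both splenic libraries for 25.4% of all genes tested, and below them for 26.8%. The counts of each list below stand beside these shares (4.10%, 1.87%, 25.4% and 26.8%) also where they are not repeated. Of the 674 higher genes, 242 were at 1 CPM or more in both splenic libraries, 399 were under 1 CPM in both and 196 had no splenic count. Of the 307 lower genes, 143 were under 1 CPM in both TIL libraries and 49 had no TIL count. These numbers rest on single libraries: 213 genes were called without splenic replicate 2, 513 without TIL replicate 1, 1046 without TIL replicate 2 and 1401 without splenic replicate 1. In such fits the lone library is assumed to vary like the other group. In the same direction, 151 higher and 22 lower genes were called in the fit of 4 libraries and in all 4 fits that left one out, and they are named as such below.

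The cell type lists were read first, because the sort does not have to be pure. The 16 T cell core genes (CD3 chains, Cd4 and others) summed to 12260 and 14890 CPM in TIL and to 13280 and 12480 CPM in spleen, with a median log2 fold change of 0.003, and 0 of 16 were called. This held by edgeR, where 0 were below 0.05 unadjusted, and by DESeq2 (0 called). Foxp3, the transcription factor that defines the lineage, was at 25.4 and 60.002 CPM in TIL and 68.5 and 58.4 CPM in spleen (log2 fold change -0.57, edgeR adjusted p = 0.562), and the values overlapped. It is thus detected in every library, at a level per kilobase of exon (10.7 CPM in TIL and 15.9 CPM in spleen) far below that of Cd3e (287 and 349 CPM per kilobase). Cd8a, which a CD4 sort should lack, was at 71.6 and 9.61 CPM in TIL and 5.12 and 5.99 CPM in spleen, and Cd8b1 at 76.005 and 38.3 against 18.8 and 24.9 CPM. 0 of these 2 genes were called in edgeR's test, although both had an unadjusted p under 0.05, and DESeq2 called 1.

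Melanoma transcripts led the comparison, and Dct, Tyr, Syt4, Slc45a2 and Tyrp1 shared the lowest adjusted p of any gene, 0.000541 in edgeR's test, with Mmp12 and Sparc. The 12 genes of the melanoma list summed to 2199 and 1208 CPM in TIL and to 10.3 and 11.9 CPM in spleen. Of these, 10 were called higher, and the other two, Mitf and Trpm1, were higher in both TIL libraries without passing. Tyrp1, which acts in pigment synthesis, was at 954 and 564 CPM in TIL and 0.383 and 0.0359 CPM in spleen (log2 fold change 11.74, SE 0.98, edgeR adjusted p = 0.000541). Tyr, the rate-limiting enzyme of melanin synthesis, was at 75.4 and 40.6 CPM in TIL with no splenic count, at least 592-fold higher. Dct, the enzyme that follows in that pathway, was at 370.2 and 224 CPM in TIL and at 0.177 and 0 CPM in spleen, and Sox10, a transcription factor of the melanocyte lineage, was at 17.9 and 12.3 CPM with no splenic count. Pmel, a protein of the melanosome fibrils, was at 482 and 182 CPM against 5.66 and 6.60 CPM (log2 fold change 5.76, edgeR adjusted p = 0.00147). Every one of the 12 was higher in TIL replicate 1 than in TIL replicate 2, with ratios of 1.25 to 4.98 (median 1.77), whereas the T cell core genes had ratios of 0.653 to 1.23 (median 0.850). The 10 calls became 8 to 12 when 1 library was left out.

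The promoters of Tyr and Dct of this list are shown because they carry the letters that MITF, the melanocyte transcription factor, is known to bind in pigment genes (M-box, CATGTG, in capitals, searched on both strands). The sequences are RefSeq's, on GRCm38.p6, and hold the bases before the start site, 5′ to 3′ in the direction of the gene. Tyr lies on the minus strand with this window at chr7:87493513-87493762, and Dct on the minus strand with its window at chr14:118052247-118052496, where the match farther from the start is on the opposite strand.
Tyr: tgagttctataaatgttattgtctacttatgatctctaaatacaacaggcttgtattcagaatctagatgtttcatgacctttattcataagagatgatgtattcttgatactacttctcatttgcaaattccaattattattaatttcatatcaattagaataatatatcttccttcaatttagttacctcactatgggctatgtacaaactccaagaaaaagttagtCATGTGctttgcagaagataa
Dct: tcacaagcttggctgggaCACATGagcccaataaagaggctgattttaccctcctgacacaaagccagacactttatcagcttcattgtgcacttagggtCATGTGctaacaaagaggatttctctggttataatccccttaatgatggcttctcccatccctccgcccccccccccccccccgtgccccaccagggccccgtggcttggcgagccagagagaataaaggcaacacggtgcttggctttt
Of the melanoma genes with a promoter in the table, 5 of 6 held CATGTG within 250 bases, against 7.89% of the 10469 tested genes with a promoter and 12.2% of all 27025 promoters. A match of letters is a description and shows no binding.

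Transcripts of other cells were present in both tissues but did not follow the tissue alone. The 19 macrophage and monocyte genes summed to 5135 and 1022 CPM in TIL and to 663 and 3509 CPM in spleen. TIL replicate 1 and splenic replicate 2 were thus the libraries with most of it, all 19 genes were higher in TIL replicate 1 than in replicate 2 (median ratio 5.02), and 18 of 19 were higher in splenic replicate 2 than in replicate 1 (median ratio 4.12). C1qa, a complement subunit of macrophages, was at 172 and 52.9 CPM in TIL and 45.004 and 327 CPM in spleen, with overlap. Only 4 of 19 were called higher: Mmp12, Arg1, Itgam and Ly6c2. Mmp12, macrophage elastase, was at 321 and 121 CPM in TIL and 0.206 and 0.251 CPM in spleen (log2 fold change 9.90, edgeR adjusted p = 0.000541), and Arg1, the arginase of tumor macrophages, was at 275 and 50.6 CPM in TIL and 0.795 and 1.18 CPM in spleen (log2 fold change 7.36, edgeR adjusted p = 0.00199). The number was 2 without either splenic replicate and 7 without TIL replicate 2. Lyz2, abundant in myeloid cells, was at 1562 and 129 CPM against 28.1 and 99.5 CPM and did not pass (log2 fold change 3.73, edgeR adjusted p = 0.0624). Red cell genes were the most uneven, at 3358 and 81.7 CPM in TIL and 170.5 and 1512 CPM in spleen, and 0 of 5 were called in edgeR's test (1 at an unadjusted p under 0.05, 0 by DESeq2).

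Dendritic cell genes summed to 2048 and 864 CPM in TIL and 354 and 1234 CPM in spleen, with 1 of 9 called, the chemokine receptor Xcr1. Neutrophil genes summed to 98.2 and 11.9 CPM against 0.943 and 23.7 CPM (1 of 5 called, Mmp8), and NK cell genes to 39.5 and 6.06 CPM against 15.5 and 15.5 CPM (1 of 5 called, Ncr1). Fibroblast genes were at 74.3 and 65.1 CPM in TIL and 1.86 and 0.646 CPM in spleen, mostly Sparc, a matricellular protein, at 65.4 and 48.4 CPM in TIL and 0.147 and 0.0359 CPM in spleen (log2 fold change 9.16, edgeR adjusted p = 0.000541), and with Col3a1 this made 2 of 5 called. B cell genes were at 335.5 and 492 CPM in TIL and 1549 and 1202 CPM in spleen, mostly Ighm, the immunoglobulin heavy chain, and 0 of 8 were called in edgeR's test (3 at an unadjusted p under 0.05, 3 by DESeq2). Pax5, which defines B cells, was at 0.430 CPM or less in every library. Endothelial genes were at 43.2 and 62.4 CPM in TIL and 84.3 and 40 CPM in spleen, with 0 of 3 called in edgeR's test (0 at an unadjusted p under 0.05, 0 by DESeq2). Left-out libraries moved these counts to 0 to 3 of 9 (dendritic cells), 0 to 5 of 5 (neutrophils), 0 to 3 of 5 (NK cells) and 1 to 3 of 5 (fibroblasts). In bulk RNA, fewer cells of a type and less RNA per cell cannot be told apart.

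**Figure D1:**
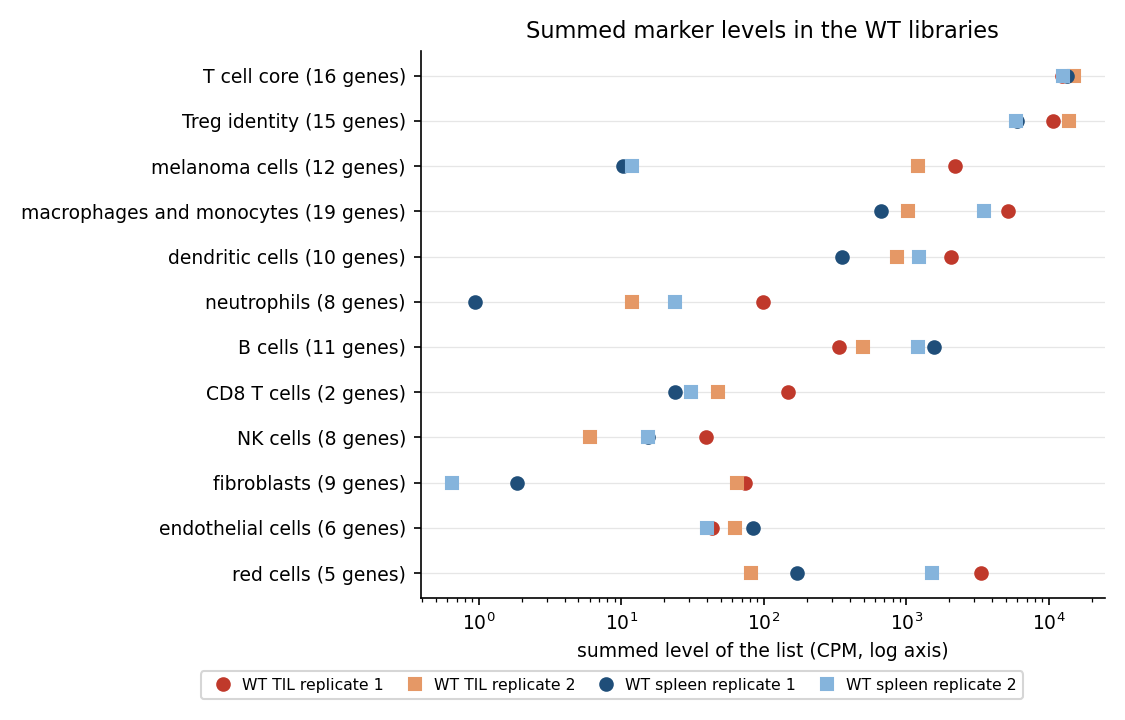
Summed level of each cell type list in the 4 WT libraries, in CPM on a log axis, with 1 point per library (red and orange, TIL; blue, spleen). The T cell core genes lie between 12260 and 14890 CPM in all libraries, the melanoma genes are at 1208 CPM or more in TIL and at 11.9 CPM or less in spleen, and the macrophage and red cell genes are highest in TIL replicate 1 and splenic replicate 2.

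The TIL replicates were therefore compared gene by gene, as a description. The ratio of TIL replicate 1 over replicate 2 had a median of 0.997 over the genes tested with TIL counts, of 0.850 for the T cell core genes and of 0.791 for the Treg identity genes. Among the 674 higher genes it was 1.56, and 441 of them (65.4%) lay above the highest T cell core gene, against 30.7% of all genes tested. A ratio within the T cell core range was found for 194 higher genes (28.8%), and for 98 of the 242 (40.5%) with 1 CPM or more in both splenic libraries. Over all genes tested with TIL counts the share was 52.5%, so a ratio in this range does not mark a T cell gene. Of the 198 lower genes with counts in both TIL libraries, 98 (49.5%) lay within the range and 49 (24.7%) above it, with a median of 0.922. Of the higher genes, 19 belonged to a list of another cell type. The ratio cannot place a single gene, and is given below only as a value beside some genes. Its part in a call was not tested.

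**Figure D2:**
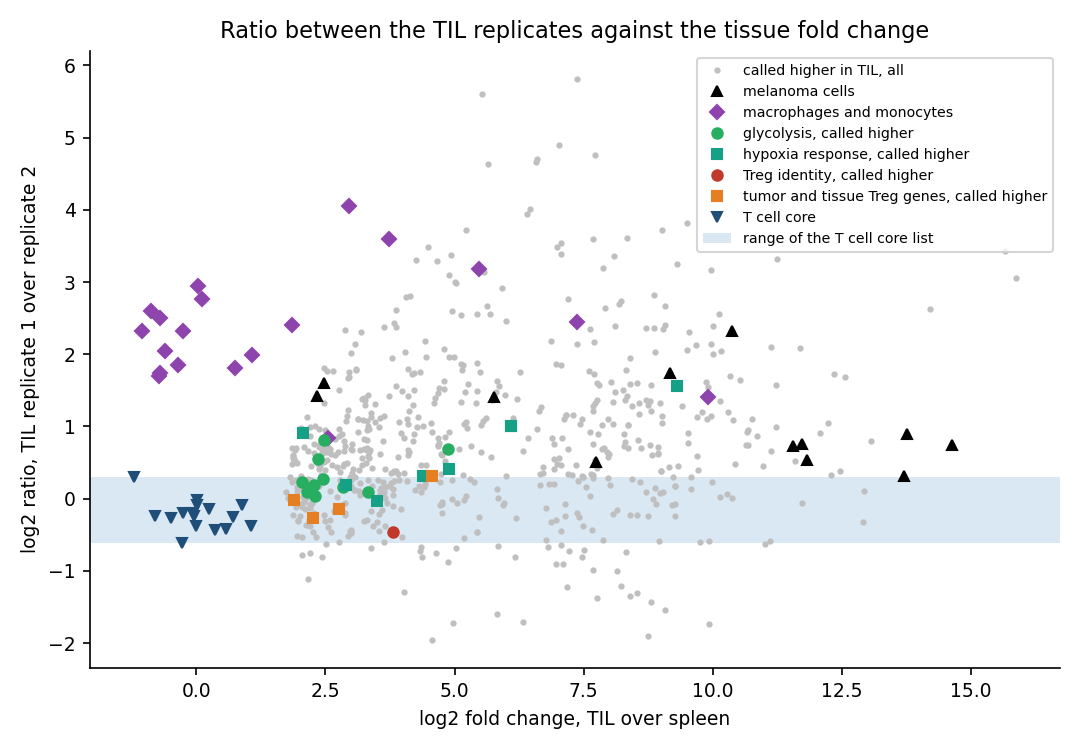
Log2 ratio of TIL replicate 1 over replicate 2 (y axis) against the fitted log2 fold change of TIL over spleen (x axis), with 1 point per gene. Grey points are all genes called higher with counts in both TIL libraries, colored points are gene lists, and the band is the range of the T cell core genes (0.653 to 1.23 as a ratio). The fitted fold changes of genes with no splenic count depend on the prior count. Melanoma and macrophage genes lie above the band, while Ctla4, Ccr8, Tnfrsf9 and Samsn1 lie within it and Areg just above it.

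The Treg receptors and mediators that were higher in TIL included Ctla4, the receptor that takes CD80 and CD86 from antigen-presenting cells. Ctla4 was at 4127 and 5676 CPM in TIL and 383 and 312 CPM in spleen, 14.1-fold higher (log2 fold change 3.82, SE 0.54, edgeR adjusted p = 0.00398). Per kilobase of exon it reached a mean of 2104 CPM in TIL and 149 CPM in spleen, the highest level in TIL of the 15 Treg identity genes. It was the only gene of that list called higher, and Gpr83, a G protein-coupled receptor of Treg cells, the only one called lower, at 3.40 and 5.26 CPM in TIL and 101 and 88.4 CPM in spleen (log2 fold change -4.45, SE 0.50, edgeR adjusted p = 0.00147). Both were called in every fit that left out a library, and without splenic replicate 1 the number called higher was 5. The median log2 fold change of the list was 0.37.

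Other Treg identity genes did not pass. Il2ra, the high-affinity IL-2 receptor chain, was at 558 and 556 CPM in TIL and 377 and 198 CPM in spleen (log2 fold change 0.95, edgeR adjusted p = 0.304). Tnfrsf18, which encodes GITR, was at 1114 and 1786 CPM in TIL and 612 and 979 CPM in spleen (log2 fold change 0.87, edgeR adjusted p = 0.370). For both, the TIL libraries lay above the splenic ones without overlap, as they did for Lrrc32, which docks latent TGF-β, at 316 and 331 CPM in TIL and 136 and 65.3 CPM in spleen (log2 fold change 1.69, edgeR adjusted p = 0.0787). Ikzf2 and Ikzf4, which encode Helios and Eos, were at 295 and 513 CPM in TIL and 460.5 and 687 CPM in spleen and at 122 and 154 CPM in TIL and 145 and 94.8 CPM in spleen, with log2 fold changes of -0.51 and 0.20 and edgeR adjusted p of 0.609 and 0.844, and their values overlapped. Izumo1r, the folate receptor 4 gene, was lower in both TIL libraries at 232 and 373 CPM in TIL and 895 and 1364 CPM in spleen without passing (log2 fold change -1.90, edgeR adjusted p = 0.0542).

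Among 20 tumor and tissue Treg genes tested, 4 were called higher and 0 lower. They were Areg, an EGF receptor ligand of tissue repair, Ccr8, Tnfrsf9, which encodes the costimulatory receptor 4-1BB, and Samsn1, an adaptor that dampens signaling. Areg was at 261 and 209 CPM in TIL and 5.98 and 13.8 CPM in spleen (log2 fold change 4.57, SE 0.58, edgeR adjusted p = 0.0023). The ratio of its TIL replicates lay just above the T cell core range. Ccr8, the chemokine receptor that marks Treg cells of tumors, was at 850.5 and 943 CPM in TIL and 152 and 113 CPM in spleen (log2 fold change 2.76, SE 0.48, edgeR adjusted p = 0.00917). Tnfrsf9 was at 2779.5 and 3356 CPM in TIL and 779 and 509 CPM in spleen (log2 fold change 2.25, edgeR adjusted p = 0.0286). Samsn1 was at 664 and 674 CPM in TIL and 223 and 139 CPM in spleen (log2 fold change 1.89, edgeR adjusted p = 0.0444). Areg and Ccr8 were called in every fit that left out a library, and the number called was 2 without splenic replicate 2 and without either TIL replicate. Ebi3, a subunit of IL-35, overlapped, at 76.972 and 109 CPM in TIL and 76.1 and 91.5 CPM in spleen (log2 fold change 0.15, edgeR adjusted p = 0.882).

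Of 13 inhibitory receptors, 2 were higher and 1 lower. Havcr2, which encodes TIM-3, was at 183 and 119 CPM in TIL and 6.66 and 4.70 CPM in spleen (log2 fold change 4.73, SE 0.52, edgeR adjusted p = 0.00147). Its TIL ratio was 1.54, above the T cell core range, while that of Ctla4 was 0.727. Cd160 was lower, at 7.70 and 4.92 CPM in TIL and 29.3 and 29.3 CPM in spleen (log2 fold change -2.21, edgeR adjusted p = 0.0314), a call that was lost when either TIL library or splenic replicate 2 was left out. Pdcd1, which encodes PD-1, was at 1139 and 1532 CPM in TIL and 503 and 237 CPM in spleen and did not pass (log2 fold change 1.85, edgeR adjusted p = 0.0722), nor did Tigit (log2 fold change 1.08, edgeR adjusted p = 0.203), although both TIL libraries were above both splenic ones for each. Without splenic replicate 1, 4 inhibitory receptors were called higher. Of 11 costimulatory receptors, Tnfrsf9 and Icos were higher and 0 were lower. Icos was at 1396 and 1639 CPM in TIL and 419.7 and 406 CPM in spleen (log2 fold change 1.88, edgeR adjusted p = 0.042). The count of 2 costimulatory receptors was 0 without splenic replicate 2 and without either TIL replicate.

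Suppressive mediators were higher in TIL for 6 of 16 tested and lower for 0 (median log2 fold change 1.68). Il10 was at 101 and 105 CPM in TIL and 14.049 and 14.1 CPM in spleen (log2 fold change 2.87, SE 0.44, edgeR adjusted p = 0.00537). Its TIL ratio was 0.963. Fgl2, a secreted suppressor of T cells that macrophages also express, was at 716 and 795 CPM in TIL and 93.2 and 31.5 CPM in spleen (log2 fold change 3.60, edgeR adjusted p = 0.00831), with a ratio of 0.901. Gzmb, the protease granzyme B, was at 1981 and 1106 CPM in TIL and 66.5 and 53.2 CPM in spleen (log2 fold change 4.69, edgeR adjusted p = 0.002), with a ratio of 1.79. Prf1, the pore-forming perforin, was at 244 and 41.7 CPM in TIL and 4.27 and 3.87 CPM in spleen (log2 fold change 5.13, edgeR adjusted p = 0.00587). Il1rn, the IL-1 receptor antagonist, was at 235 and 29.3 CPM in TIL and 5.04 and 3.12 CPM in spleen (log2 fold change 5.01, edgeR adjusted p = 0.00999). The TIL replicates differed by 5.85 times for Prf1 and 8.02 times for Il1rn, against medians of 5.02 for the macrophage list and 4.72 for the CD8 list, whose part in these calls was not tested. Il10, Areg, Fgl2 and Gzmb were called in every fit that left out a library, and the count was 4 without splenic replicate 2.

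Of 13 effector cytokines, 3 were higher and 1 was lower. Ifng, the type 1 cytokine, was at 59.3 and 47.4 CPM in TIL and 9.90 and 9.86 CPM in spleen (log2 fold change 2.43, edgeR adjusted p = 0.0135). Csf2 was at 4.98 and 4.59 CPM in TIL and 0.206 and 0.610 CPM in spleen (log2 fold change 3.55, edgeR adjusted p = 0.0308). Il5 was near the floor, at 0.502 and 0.804 CPM in TIL and 0.0295 and 0 CPM in spleen. Il4, the type 2 cytokine of follicular help, was lower, at 0.215 and 0.904 CPM in TIL and 6.54 and 8.39 CPM in spleen (log2 fold change -3.72, edgeR adjusted p = 0.028). The number higher was 0 without splenic replicate 2 and 1 without splenic replicate 1 or TIL replicate 1, and of these 4 fits only that without TIL replicate 2 called Il4 lower. Among 27 cytokine receptors 1 was higher and 1 lower, beside 4.10% and 1.87% of all genes tested. The higher gene, Il12rb2, a subunit of the IL-12 receptor, was at 26.9 and 25.1 CPM in TIL and 1.71 and 0.825 CPM in spleen (log2 fold change 4.35, SE 0.62, edgeR adjusted p = 0.00408). Il6ra, the IL-6 receptor, was lower at 7.74 and 11.4 CPM in TIL and 41.9 and 55.7 CPM in spleen (log2 fold change -2.35, edgeR adjusted p = 0.0201). Without splenic replicate 1, 8 receptors were called higher, Il6ra was lost in each of the other 3 fits, and Il12rb2 was called in every fit that left out a library. Ifngr1 was at 1524 and 2608 CPM in TIL and 606 and 491 CPM in spleen and stayed just short of the threshold (log2 fold change 1.91, edgeR adjusted p = 0.0538).

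**Figure D3:**
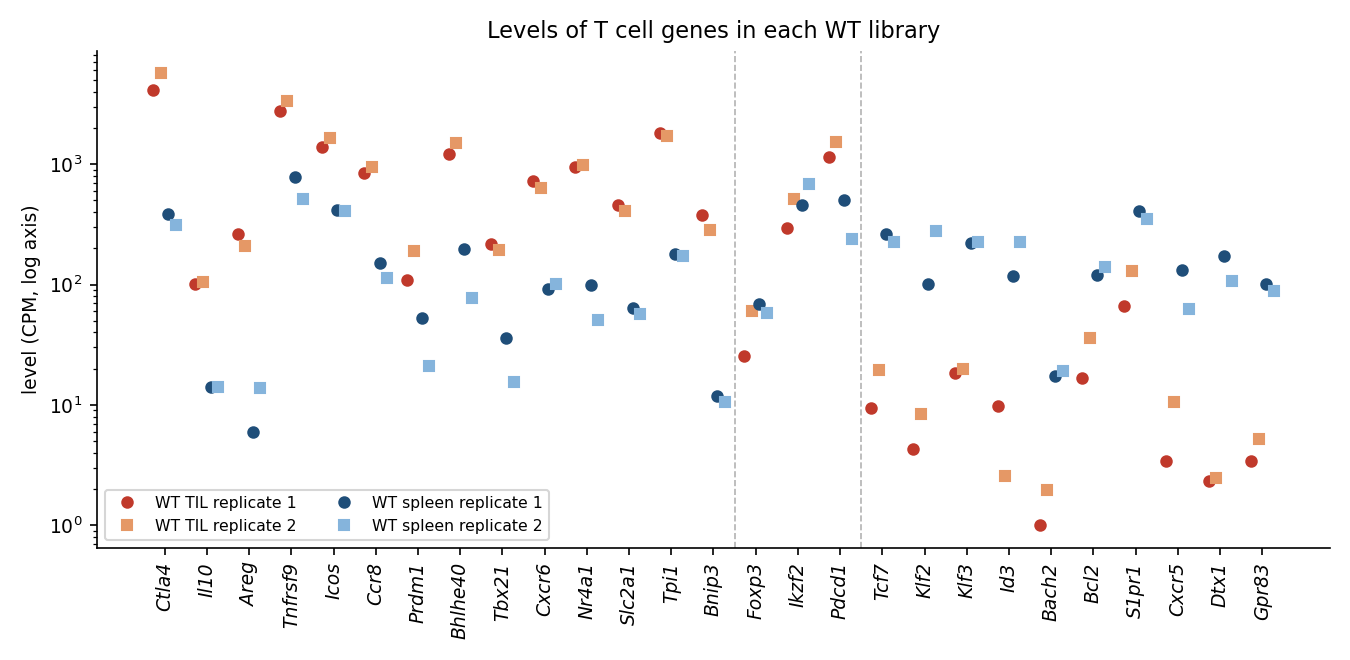
Level of 27 T cell genes in each WT library, in CPM on a log axis, with 1 point per library (red and orange, TIL; blue, spleen). Genes left of the first dashed line, and Pdcd1, lie higher in both TIL libraries. Foxp3 and Ikzf2 overlap between the tissues, and genes right of the second line lie lower in both TIL libraries. Ctla4 reaches 5676 CPM in TIL, and Klf2 lies at 8.37 CPM or less in TIL and at 101 CPM or more in spleen.

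Transcription factors of the effector state were higher for 4 of 23 tested and lower for 0. Bhlhe40, a repressor induced by T cell activation, was at 1219.6 and 1489.6 CPM in TIL and 197 and 77.7 CPM in spleen (log2 fold change 3.30, SE 0.58, edgeR adjusted p = 0.00971). Tbx21, which encodes T-bet, was at 219 and 194 CPM in TIL and 35.962 and 15.6 CPM in spleen (log2 fold change 3, SE 0.53, edgeR adjusted p = 0.00967). Rbpj, the DNA-binding partner of Notch, was at 242 and 226 CPM in TIL and 67.6 and 36.984 CPM in spleen (log2 fold change 2.16, edgeR adjusted p = 0.0269). Zeb2, which myeloid cells also express, was at 52.5 and 15.5 CPM in TIL and 6.24 and 5.45 CPM in spleen (log2 fold change 2.54, edgeR adjusted p = 0.0419), with a TIL ratio of 3.39. Bhlhe40 and Tbx21 were called in every fit that left out a library, and 7 genes were called without splenic replicate 1 and 2 without TIL replicate 1. Prdm1, which encodes Blimp1, lay higher in both TIL libraries, at 108 and 191 CPM in TIL and 53.2 and 21.1 CPM in spleen, and did not pass (log2 fold change 2.01, SE 0.55, edgeR adjusted p = 0.0628). Eomes was low and overlapped, at 2.94 and 1.21 CPM in TIL and 0.383 and 1.36 CPM in spleen (log2 fold change 1.25, edgeR adjusted p = 0.462). Rora, a factor of tissue Treg cells, was at 286 and 375 CPM in TIL and 132 and 108 CPM in spleen without passing (log2 fold change 1.46, edgeR adjusted p = 0.091).

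Quiescence and central memory factors were the list with most calls in the opposite direction, with 8 of 22 lower, 0 higher and a median log2 fold change of -1.38, against 1.87% of all genes tested called lower. Tcf7, which encodes TCF1, was at 9.35 and 19.6 CPM in TIL and 262 and 223 CPM in spleen, 16.8-fold lower (log2 fold change -4.07, SE 0.54, edgeR adjusted p = 0.00305). Klf2, which drives S1pr1, was at 4.30 and 8.37 CPM in TIL and 101 and 279 CPM in spleen (log2 fold change -4.91, SE 0.66, edgeR adjusted p = 0.00307). Its relative Klf3 was at 18.5 and 19.9 CPM in TIL and 223 and 225 CPM in spleen (log2 fold change -3.54, SE 0.46, edgeR adjusted p = 0.00275). Id3, an inhibitor of E proteins, was at 9.78 and 2.58 CPM in TIL and 117 and 227 CPM in spleen (log2 fold change -4.80, edgeR adjusted p = 0.00489). Bach2, a repressor of effector genes, was at 1.0034 and 1.98 CPM in TIL and 17.3 and 19.012 CPM in spleen (log2 fold change -3.60, edgeR adjusted p = 0.00924). Foxo1, which acts upstream of Klf2, was at 36.5 and 46.9 CPM in TIL and 119 and 183 CPM in spleen (log2 fold change -1.86, edgeR adjusted p = 0.0405). Bcl2 was at 16.6 and 35.9 CPM in TIL and 119.6 and 141 CPM in spleen (log2 fold change -2.31, edgeR adjusted p = 0.0252). S1pr1, the receptor for egress into blood and lymph, was at 66.9 and 129 CPM in TIL and 409.7 and 348 CPM in spleen (log2 fold change -1.95, edgeR adjusted p = 0.045). None of these pairs of replicates overlapped between the tissues, and 16 of 22 members lay lower without overlap, against 26.8% of all genes tested. Tcf7, Klf2 and Klf3 were called in every fit that left out a library, and the count was 3 without splenic replicate 2 and 5 without either TIL replicate. Not every member followed: Ccr7, the lymph node homing receptor, lay higher in both TIL libraries at 361 and 257 CPM in TIL and 188 and 247 CPM in spleen (log2 fold change 0.51, edgeR adjusted p = 0.575).

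The related egress and adhesion list had 1 of 24 higher and 1 lower (S1pr1), beside 4.10% and 1.87% of all genes tested. P2ry10, a lysophospholipid receptor, was at 500.2 and 878 CPM in TIL and 145 and 111 CPM in spleen (log2 fold change 2.43, edgeR adjusted p = 0.0207). Without splenic replicate 2, 0 were called higher and 0 lower, without either TIL replicate S1pr1 was not called, and without splenic replicate 1, 4 were called higher.

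Chemokine receptors changed in both directions, with 8 of 17 tested higher and 3 lower. Cx3cr1, the fractalkine receptor of effector T cells and monocytes, was at 54.3 and 32.8 CPM in TIL and 1.18 and 2.22 CPM in spleen (log2 fold change 4.68, SE 0.60, edgeR adjusted p = 0.00268). Cxcr6, a receptor of tissue-resident T cells, was at 731 and 631 CPM in TIL and 92.5 and 102 CPM in spleen (log2 fold change 2.81, edgeR adjusted p = 0.00773). Ccrl2 was at 408 and 374 CPM in TIL and 41.7 and 38.9 CPM in spleen (log2 fold change 3.28, edgeR adjusted p = 0.00408). Ccr2 was at 536 and 697 CPM in TIL and 158 and 109 CPM in spleen (log2 fold change 2.21, edgeR adjusted p = 0.0249). Ccr1, which myeloid cells also express, was at 131 and 47.1 CPM in TIL and 3.24 and 1.54 CPM in spleen (log2 fold change 5.21, edgeR adjusted p = 0.00283). Xcr1, also in the dendritic list, was at 19.5 and 15.6 CPM in TIL and 3.59 and 2.98 CPM in spleen (log2 fold change 2.42, edgeR adjusted p = 0.0314). The TIL ratios of Ccr8, Cxcr6, Ccrl2 and Ccr2 were 0.769 to 1.16, within the T cell core range, and those of Xcr1, Cx3cr1 and Ccr1 were 1.25, 1.66 and 2.78. Cxcr5, the receptor for B cell follicles, was lower, at 3.44 and 10.6 CPM in TIL and 132 and 62.3 CPM in spleen (log2 fold change -3.79, edgeR adjusted p = 0.00889). Ccr10 was at 0.573 and 1.64 CPM in TIL and 8.31 and 28.9 CPM in spleen (log2 fold change -4.06, edgeR adjusted p = 0.0188). Ccr3 was at 11.1 and 21.6 CPM in TIL and 51.1 and 119.7 CPM in spleen (log2 fold change -2.38, edgeR adjusted p = 0.0335). Ccr10 and Ccr3 were thus lower as well. Ccr8, Cxcr6, Ccrl2 and Cx3cr1 were called in every fit that left out a library, with 5 higher and 1 lower called without splenic replicate 2, and 1 lower without TIL replicate 1. Cxcr3, a receptor of type 1 T cells, did not pass, at 392.2 and 636 CPM in TIL and 350.1 and 329 CPM in spleen (log2 fold change 0.60, edgeR adjusted p = 0.511).

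Genes of follicular regulatory T cells, which control germinal centers, were lower for 5 of 17 tested and higher for 1 (Icos). Besides Cxcr5, these were Sh2d1a, the signaling adaptor SAP, at 43.3 and 91.5 CPM in TIL and 264 and 353 CPM in spleen (log2 fold change -2.19, edgeR adjusted p = 0.0333). Cebpa was at 0.824 and 0.167 CPM in TIL and 6.89 and 7.89 CPM in spleen (log2 fold change -3.89, edgeR adjusted p = 0.0266). Sostdc1, a secreted antagonist of BMP and Wnt ligands made by follicular regulatory cells, was at 0 and 0.502 CPM in TIL and at 33.3 and 13.4 CPM in spleen. Pou2af1, a coactivator abundant in B cells, was at 0.573 and 0 CPM in TIL and 13.1 and 6.995 CPM in spleen. Bcl6, the factor that directs the follicular program, overlapped at 19.4 and 21.7 CPM in TIL and 38.1 and 11.4 CPM in spleen (log2 fold change -0.27, edgeR adjusted p = 0.842). The number of lower genes was 1 without splenic replicate 2, 2 without splenic replicate 1 and 3 without either TIL replicate. Icos was lost in each fit but that without splenic replicate 1, where 3 were called higher. The B cell list, at 1549 and 1202 CPM in spleen and 335.5 and 492 CPM in TIL, lay lower in the same libraries, and its part was not tested.

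Of the Notch pathway, 2 of 23 genes were higher and 2 lower, beside 4.10% and 1.87% of all genes tested. Dtx1, a Notch target and E3 ligase, was the lower gene with the smallest adjusted p, at 2.33 and 2.48 CPM in TIL and 171 and 107 CPM in spleen, 57.8-fold lower (log2 fold change -5.85, SE 0.54, edgeR adjusted p = 0.000697). Hes5 had no TIL count and was at 0.383 and 0.717 CPM in spleen, and the ligand Dll4 had no splenic count and was at 1.51 and 0.737 CPM in TIL. Hes1, Nrarp and Dtx4, which are also Notch targets, did not pass, with log2 fold changes of -2.97, -1.24 and -2.20. Dtx1 was called in every fit that left out a library, whereas the higher count was 0 without splenic replicate 2 or TIL replicate 1 and 1 without TIL replicate 2. In each of these fits and without splenic replicate 1, 1 gene was called lower.

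Immediate early genes, which respond to receptor signals and to cell dissociation alike, were higher for 8 of 25 and lower for 2. The nuclear receptor Nr4a1, a reporter of T cell receptor signals, was at 952 and 992 CPM in TIL and 99.2 and 50.3 CPM in spleen (log2 fold change 3.70, SE 0.54, edgeR adjusted p = 0.00458), and Nr4a2 and Nr4a3 were at 333 and 154 CPM in TIL and 24.9 and 30.5 CPM in spleen and at 79.6 and 71.1 CPM in TIL and 18.6 and 17.3 CPM in spleen. Their log2 fold changes were 3.14 and 2.07, with edgeR adjusted p of 0.00826 and 0.0217. Fosl2, an AP-1 subunit, was at 133 and 142 CPM in TIL and 9.98 and 9.69 CPM in spleen (log2 fold change 3.81, SE 0.46, edgeR adjusted p = 0.002). Junb was at 2404 and 2597 CPM in TIL and 662 and 648 CPM in spleen (log2 fold change 1.93, edgeR adjusted p = 0.0404). The phosphatase Dusp4 was at 288 and 248 CPM in TIL and 30.5 and 8.68 CPM in spleen (log2 fold change 3.77, edgeR adjusted p = 0.00831). Atf3 and Ier3 were at 109.7 and 35.5 CPM in TIL and 1.12 and 1.43 CPM in spleen and at 169.6 and 28.7 CPM in TIL and 1.56 and 2.30 CPM in spleen, with log2 fold changes of 5.83 and 5.68 and TIL ratios of 3.09 and 5.90. Jund was lower, at 36.3 and 31.1 CPM in TIL and 118 and 183 CPM in spleen (log2 fold change -2.15, edgeR adjusted p = 0.0231). Dusp2 was at 15.8 and 16.1 CPM in TIL and 58.8 and 129.7 CPM in spleen (log2 fold change -2.56, edgeR adjusted p = 0.0172). Fos, Jun and Egr1 did not pass, with log2 fold changes of 0.85, -0.24 and 0.79. Nr4a1, Fosl2, Dusp4 and Atf3 were called in every fit that left out a library, with 4 higher and 0 lower called without splenic replicate 2 and 5 and 0 without TIL replicate 1. Without TIL replicate 2 the counts were 6 and 0. Of 14 heat shock genes 1 was higher, Hspa1a, at 159.5 and 275 CPM in TIL and 70.982 and 34.1 CPM in spleen (log2 fold change 2.05, edgeR adjusted p = 0.048), and 0 were called without splenic replicate 2 or without either TIL replicate.

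Of the 21 lists that are not cell type markers, glycolysis had the largest share called higher, 11 of 19, with 0 lower and a median log2 fold change of 2.14. All 19 members lay higher in both TIL libraries, against 25.4% of all genes tested, and the list summed to 31020 and 27020 CPM in TIL and to 7305 and 6705 CPM in spleen. Slc16a3, the lactate exporter MCT4, was at 451 and 280.3 CPM in TIL and 16.6 and 8.43 CPM in spleen (log2 fold change 4.87, SE 0.58, edgeR adjusted p = 0.00196). Tpi1, triosephosphate isomerase, was at 1827 and 1711 CPM in TIL and 179.9 and 172 CPM in spleen (log2 fold change 3.33, SE 0.49, edgeR adjusted p = 0.00477). Slc2a1, the glucose transporter GLUT1, was at 456 and 406 CPM in TIL and 64.1 and 56.4 CPM in spleen (log2 fold change 2.84, SE 0.46, edgeR adjusted p = 0.00674). Pgk1, phosphoglycerate kinase, was at 1068 and 883 CPM in TIL and 188 and 166 CPM in spleen (log2 fold change 2.46, edgeR adjusted p = 0.0144), and Aldoa, Eno1 and Pkm had log2 fold changes of 2.14, 2.05 and 2.25. Gapdh and Ldha, at 5354 and 5268 CPM in TIL and 1489 and 1751 CPM in spleen and at 6586 and 4721 CPM in TIL and 1479 and 1475 CPM in spleen, missed the threshold (edgeR adjusted p of 0.0722 and 0.0501). The TIL ratios of the list ran from 0.879 to 1.76. Their median of 1.12 lay between those of the T cell core list (0.850) and the melanoma list (1.77). Of the 19 members, 18 were higher in TIL replicate 1 than in replicate 2, against 1 of 16 T cell core genes and 12 of 12 melanoma genes. The ratio of Slc16a3 lay above the T cell core range. Tumor cells express glycolysis genes as well, and the part of melanoma RNA in them was not tested. Slc16a3, Tpi1 and Slc2a1 were called in every fit that left out a library, with 3 called without TIL replicate 1, 5 without splenic replicate 2, 6 without TIL replicate 2 and 16 without splenic replicate 1.

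Hypoxia response genes were higher for 8 of 19 and lower for 0 (median log2 fold change 1.93), against 4.10% of all genes tested called higher. Of them, 17 lay higher without overlap, against 25.4% of all genes tested. Bnip3, a mitophagy receptor and HIF1 target, had the smallest adjusted p of the higher genes at 1 CPM or more in both splenic libraries, at 379 and 286 CPM in TIL and 11.8 and 10.5 CPM in spleen (log2 fold change 4.90, SE 0.51, edgeR adjusted p = 0.00123). Ndrg1 was at 169.8 and 148 CPM in TIL and 18.8 and 23.7 CPM in spleen (log2 fold change 2.90, edgeR adjusted p = 0.00585). Ero1l, an oxidase of protein folding, was at 433 and 442 CPM in TIL and 58.7 and 19.1 CPM in spleen (log2 fold change 3.49, edgeR adjusted p = 0.00909). Car9, the carbonic anhydrase CAIX, was at 29.5 and 23.7 CPM in TIL and 0.825 and 1.72 CPM in spleen (log2 fold change 4.39, edgeR adjusted p = 0.00408). P4ha2, a collagen prolyl hydroxylase, was at 12.5 and 6.23 CPM in TIL and 0.0589 and 0.215 CPM in spleen, and Adm, the peptide adrenomedullin, at 9.32 and 4.62 CPM in TIL and 0.0884 and 0.108 CPM in spleen. Vegfa, the angiogenic ligand, was at 49.2 and 16.6 CPM in TIL and at 0.0884 and 0 CPM in spleen. The TIL ratios were 0.979 for Ero1l, 1.14 for Ndrg1 and 1.33 for Bnip3, and 2.0023 for P4ha2 and 2.96 for Vegfa. Hif1a itself, at 1665 and 1854 CPM in TIL and 753 and 173 CPM in spleen, did not pass (log2 fold change 1.93, edgeR adjusted p = 0.128). Bnip3, Ndrg1, Ero1l, Car9, P4ha2 and Vegfa were called in every fit that left out a library, and the count was 6 to 12.

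Promoters of Bnip3, Pgk1 and P4ha2 are shown because they hold the core of the hypoxia response element that HIF1 is known to bind (ACGTG, in capitals, both strands, where CACGTG counts on each). They are RefSeq's on GRCm38.p6, 5′ to 3′ in the direction of the gene, Bnip3 on the minus strand at chr7:138909520-138909756 and, on the plus strand, Pgk1 at chrX:106186850-106187099 and P4ha2 at chr11:54100674-54100923.
Bnip3: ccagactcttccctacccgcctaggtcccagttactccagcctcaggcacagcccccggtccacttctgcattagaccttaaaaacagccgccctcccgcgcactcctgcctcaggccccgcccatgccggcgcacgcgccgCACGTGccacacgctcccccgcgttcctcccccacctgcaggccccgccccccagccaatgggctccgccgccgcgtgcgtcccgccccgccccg
Pgk1: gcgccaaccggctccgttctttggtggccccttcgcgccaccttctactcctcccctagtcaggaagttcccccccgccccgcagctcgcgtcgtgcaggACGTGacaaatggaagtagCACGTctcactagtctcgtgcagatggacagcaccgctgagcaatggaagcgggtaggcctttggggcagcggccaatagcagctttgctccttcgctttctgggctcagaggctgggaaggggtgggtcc
P4ha2: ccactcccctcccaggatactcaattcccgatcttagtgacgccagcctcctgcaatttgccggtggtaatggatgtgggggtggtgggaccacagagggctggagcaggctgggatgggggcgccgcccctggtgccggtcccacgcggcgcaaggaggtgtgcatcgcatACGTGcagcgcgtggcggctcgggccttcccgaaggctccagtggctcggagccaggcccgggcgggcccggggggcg
Within 250 bases before the start, 10 of 16 hypoxia response genes and 8 of 18 glycolysis genes with a promoter held ACGTG, against 21.5% of tested genes, 16.6% of all promoters, 18.4% of the 512 higher genes and 26.9% of the 175 higher genes at 1 CPM or more in both splenic libraries. The other letters searched were TGANTCA (AP-1), GGGA and CC with any 4 bases between them (NF-kB) and CCACCC (the CACCC box of KLF factors), and matches of different motifs may overlap. TGANTCA was in 9.77% of promoters of the higher genes, 4.59% of the 196 lower genes and 4.42% of tested genes (6.87% of all promoters). The NF-kB letters were in 25.8%, 25.5% and 22.0% (17.3%), and CCACCC in 35.9%, 34.2% and 32.7% (27.7%), in the same order. CATGTG was in 9.77% of the higher and 10.2% of the lower genes. Among quiescence genes, 8 of 18 held CCACCC and 0 of 18 held ACGTG, and among immediate early genes 0 of 18 held TGANTCA. These counts are descriptions, without a test.

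Genes of lipid uptake and synthesis were higher for 8 of 23 and lower for 1. Members of the sterol pathway were among the higher. Hmgcs1, an early enzyme of it, was at 252 and 158 CPM in TIL and 36.4 and 14.6 CPM in spleen (log2 fold change 3.01, edgeR adjusted p = 0.0133). Sqle, squalene epoxidase, was at 159 and 102 CPM in TIL and 26.4 and 17.4 CPM in spleen (log2 fold change 2.57, edgeR adjusted p = 0.0128). Insig1, a sterol sensor, was at 202 and 122 CPM in TIL and 27.2 and 16.9 CPM in spleen (log2 fold change 2.88, edgeR adjusted p = 0.00917). Cyp51 and Idi1, also of that pathway, had log2 fold changes of 3.12 and 3.30. Abcg1, a cholesterol exporter, was lower, at 25.7 and 22.9 CPM in TIL and 76.961 and 109 CPM in spleen (log2 fold change -1.93, edgeR adjusted p = 0.0302). Cd36, a fatty acid scavenger receptor that macrophages express, was at 174 and 23.036 CPM in TIL and 1.80 and 1.47 CPM in spleen (log2 fold change 5.91, edgeR adjusted p = 0.00537), and its TIL ratio of 7.56 was above the median of the macrophage list (5.02). The ratios of Hmgcs1, Sqle, Insig1, Cyp51 and Idi1 were 1.57 to 2.10, above the T cell core range. Without splenic replicate 2, 0 were called higher and 0 lower, and without TIL replicate 1, 3 were called higher. The part of other cells in these values was not tested. Bub1 was the 1 gene called of 30 on the cell cycle list, beside 4.10% of all genes tested called higher. It was at 82.8 and 20.5 CPM in TIL and 9.60 and 3.34 CPM in spleen (log2 fold change 2.99, edgeR adjusted p = 0.0418). The list had 17 members higher without overlap, against 25.4% of all genes tested. It summed to 7135 and 3218 CPM in TIL and to 2716 and 2410 CPM in spleen, and 9 members were called without TIL replicate 2 and 0 without TIL replicate 1 or splenic replicate 2. DESeq2 called 11 higher, edgeR without the filter on low counts 14 and with the gene length trend removed 3, and 15 had an unadjusted p under 0.05 in the edgeR test.

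Interferon-stimulated genes were higher for 3 of 27 and lower for 0 (median log2 fold change 1.21), against 4.10% of all genes tested called higher. Of the 27, 22 lay higher without overlap, against 25.4% of all genes tested. Rsad2, the antiviral enzyme viperin, was at 116 and 97.4 CPM in TIL and 22.2 and 23.4 CPM in spleen (log2 fold change 2.23, edgeR adjusted p = 0.0157). Oasl1 was at 36.9 and 23.974 CPM in TIL and 6.07 and 3.98 CPM in spleen (log2 fold change 2.60, edgeR adjusted p = 0.0207). Mx1 was at 11.9 and 16.4 CPM in TIL and 2.62 and 2.04 CPM in spleen (log2 fold change 2.60, edgeR adjusted p = 0.0312). Isg15 did not pass, with a log2 fold change of 0.86. The count was 0 without splenic replicate 2, 1 without either TIL replicate and 7 without splenic replicate 1. It was 10 in DESeq2, 11 without the filter on low counts and 7 with the gene length trend removed, and 15 members had an unadjusted p under 0.05. Survival and death genes were higher for 4 of 20 and lower for 1, Bcl2. Pmaip1, the BH3-only protein NOXA, was at 199 and 246 CPM in TIL and 31.7 and 15.2 CPM in spleen (log2 fold change 3.25, edgeR adjusted p = 0.00662). Bcl2l1, which encodes BCL-XL, was at 231 and 197 CPM in TIL and 72.3 and 46.4 CPM in spleen (log2 fold change 1.85, edgeR adjusted p = 0.0418). Tnfaip3, the NF-kB inhibitor A20, was at 1307 and 2102 CPM in TIL and 233 and 94.2 CPM in spleen (log2 fold change 3.38, edgeR adjusted p = 0.0101). Fasl, the death ligand, was at 46.9 and 48.952 CPM in TIL and 10.5 and 9.86 CPM in spleen (log2 fold change 2.23, edgeR adjusted p = 0.0192). Bcl2 and Bcl2l1, both guards of mitochondria, thus lay in opposite directions without overlap, while Mcl1 was at 88.3 and 96.7 CPM in TIL and 217 and 282 CPM in spleen (log2 fold change -1.43, edgeR adjusted p = 0.0915). Pmaip1 and Tnfaip3 were called in every fit that left out a library, and 2 members were called higher without splenic replicate 2 or without either TIL replicate. Of the 4 fits that left out a library, only that without splenic replicate 1 called Bcl2 lower.

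**Figure D4:**
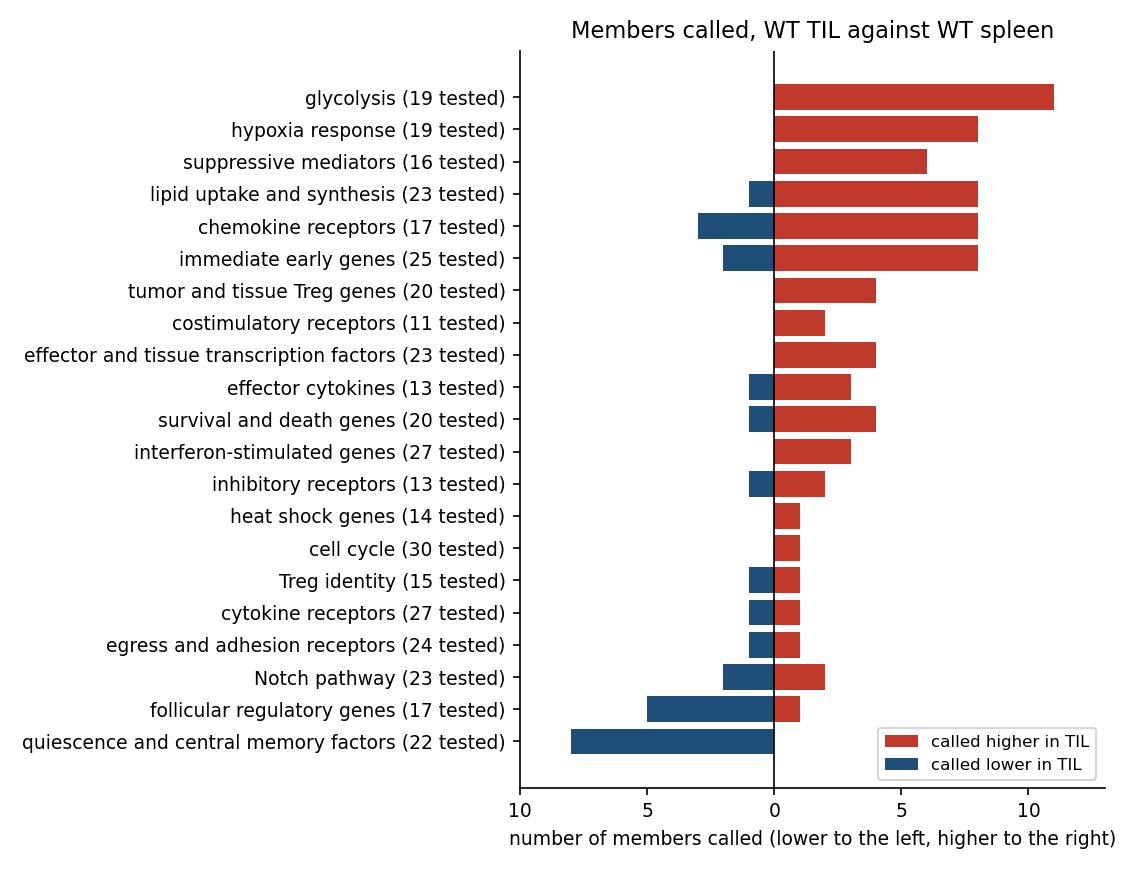
Number of members called in edgeR's test for each gene list, higher in TIL to the right and lower to the left, with the number tested beside the name. Glycolysis has 11 of 19 called higher, and quiescence and central memory factors have 8 of 22 called lower.

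Of the 15 higher genes with the smallest adjusted p among those at 1 CPM or more in both splenic libraries, several lie in none of the lists. Cdkn1a, the cell cycle inhibitor p21, was at 269 and 171 CPM in TIL and 6.63 and 8.43 CPM in spleen (log2 fold change 4.87, SE 0.53, edgeR adjusted p = 0.00138). Bambi, a pseudoreceptor of TGF-β signals, was at 25.7 and 27.3 CPM in TIL and 1.0014 and 1.0044 CPM in spleen (log2 fold change 4.72, edgeR adjusted p = 0.00205). Sv2c, a synaptic vesicle glycoprotein, was at 88.977 and 74.031 CPM in TIL and 1.35 and 3.95 CPM in spleen (log2 fold change 4.95, edgeR adjusted p = 0.00237). Ccl4, an inflammatory chemokine, was at 314 and 125 CPM in TIL and 4.09 and 6.17 CPM in spleen (log2 fold change 5.42, edgeR adjusted p = 0.00168). Tubb6, a tubulin, was at 263 and 99.8 CPM in TIL and 7.80 and 6.89 CPM in spleen (log2 fold change 4.63, edgeR adjusted p = 0.00268). Spp1, osteopontin, a product of tumor macrophages and of some T cells, was at 844 and 130.3 CPM in TIL and 2.27 and 1.04 CPM in spleen (log2 fold change 8.19, edgeR adjusted p = 0.00205). The TIL ratios were 0.943 for Bambi and 1.20 for Sv2c, within the T cell core range, and 1.58 for Cdkn1a, 2.51 for Ccl4, 2.64 for Tubb6 and 6.48 for Spp1. All of these except Spp1 and Tubb6 were called in every fit that left out a library.

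Genes nearly silent in spleen followed the same rule with under 1 CPM there. Tinagl1, a matricellular protein, was at 33.971 and 31.6 CPM in TIL with no splenic count, at least 335-fold higher, and its TIL ratio was 1.07. Car6, a secreted carbonic anhydrase, was at 28.7 and 35.8 CPM and at least 329-fold higher, Fam198b at 45.3 and 25.9 CPM and at least 363-fold higher, and Fkbp6 at 26.9 and 20.6 CPM and at least 242-fold higher. Cryab, a small heat shock protein, was at 21.9 and 18.6 CPM in TIL and at 0.0589 and 0.0359 CPM in spleen. The bounds set the splenic level at 3 counts per library. The ratios of Car6 and Cryab were 0.803 and 1.18, within the T cell core range, and those of Fam198b and Fkbp6 were 1.75 and 1.31. Each of the 5 was called in every fit that left out a library. Of all genes tested with TIL counts, 52.5% lay in the T cell core range. Tyr, Sox10 and Syt4 of the melanoma list had no splenic count either, with ratios of 1.86, 1.45 and 1.25. The part of tumor and other cells in Tinagl1, Car6, Fam198b, Fkbp6 and Cryab was not tested.

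The 15 lower genes with the smallest adjusted p were Dtx1, Gpr83, Tcf7, Klf2 and Klf3, described above, and 10 others. Capn3, a calpain protease, was at 0.896 and 1.04 CPM in TIL and 39.6 and 48.8 CPM in spleen (log2 fold change -5.51, edgeR adjusted p = 0.00111). Itgad, the integrin αD chain, was at 1.04 and 0.737 CPM in TIL and 36.9 and 71.7 CPM in spleen (log2 fold change -5.93, edgeR adjusted p = 0.00123), and red pulp macrophages of the spleen are known to express it. The part of the macrophage list, highest of the splenic libraries in replicate 2, was not tested. C6, a complement component, was at 0.0358 and 0 CPM in TIL and at 14.02 and 37.4 CPM in spleen. Nsg2, Aff3 and Lrig1 were at 3.83 and 5.02, 0.824 and 1.61 and 2.47 and 3.45 CPM in TIL against 72.5 and 78.954, 36.4 and 28.6 and 65.003 and 40.9 CPM in spleen, with log2 fold changes of -4.09, -4.73 and -4.16. Aff3 is a nuclear factor of lymphocytes, and Lrig1 restrains growth factor receptors. Hs3st2, a heparan sulfate enzyme, the potassium channel genes Kcna2 and Kcnj16, and Arhgap20 had no TIL count, and were at least 65.4-fold, 66.1-fold, 79.3-fold and 50.8-fold lower. Their splenic levels were 5.07 and 8.54, 4.74 and 9.0038, 4.30 and 12.2 and 4.89 and 5.67 CPM. All 15 were called in every fit that left out a library.

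The KO libraries were compared between the same tissues, with no library shared with the WT comparison, to set the values side by side. There 228 of 16933 genes (1.35%) were called, 136 higher (0.803%) and 92 lower (0.543%), a number that ranged from 0 to 4958 when 1 library was left out. Of the 633 genes higher in WT and tested in KO, 624 had a positive fold change, 612 were without overlap in the same direction (31.3% of all genes tested) and 83 were called higher. Of the 284 lower in WT and tested, 230 had a negative fold change, and 195 were without overlap in the same direction (32.6% of all genes tested). Among these 284, 28 were called lower and 1, Dusp2, was called higher (log2 fold change 2.18, edgeR adjusted p = 0.042). The shares of all genes with a positive or negative fold change in KO were not counted. The higher genes include Tyrp1 and Mmp12, at 1472 and 347 CPM and at 835 and 194 CPM in KO TIL. The part of other cells in these counts was not tested. Havcr2 was at 150.1 and 295 CPM in KO TIL and 3.71 and 4.76 CPM in KO spleen (log2 fold change 5.71, edgeR adjusted p = 0.0366). Dtx1 was at 5.11 and 7.45 CPM in KO TIL and 157 and 132 CPM in KO spleen (log2 fold change -4.52, edgeR adjusted p = 0.0332). Ctla4 was at 476 and 909 CPM in KO TIL and 309.9 and 314 CPM in KO spleen (log2 fold change 1.15, edgeR adjusted p = 0.122). Tcf7 had a log2 fold change of -2.47 in KO (edgeR adjusted p = 0.0374), Klf2 of -1.55 (edgeR adjusted p = 0.168) and Tpi1 of 2.80 (edgeR adjusted p = 0.0374). Whether the tissue difference itself differed between the genotypes was tested with an interaction term, and 0 of 17870 genes passed in edgeR's test (1399 at an unadjusted p under 0.05).

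**Figure D5:**
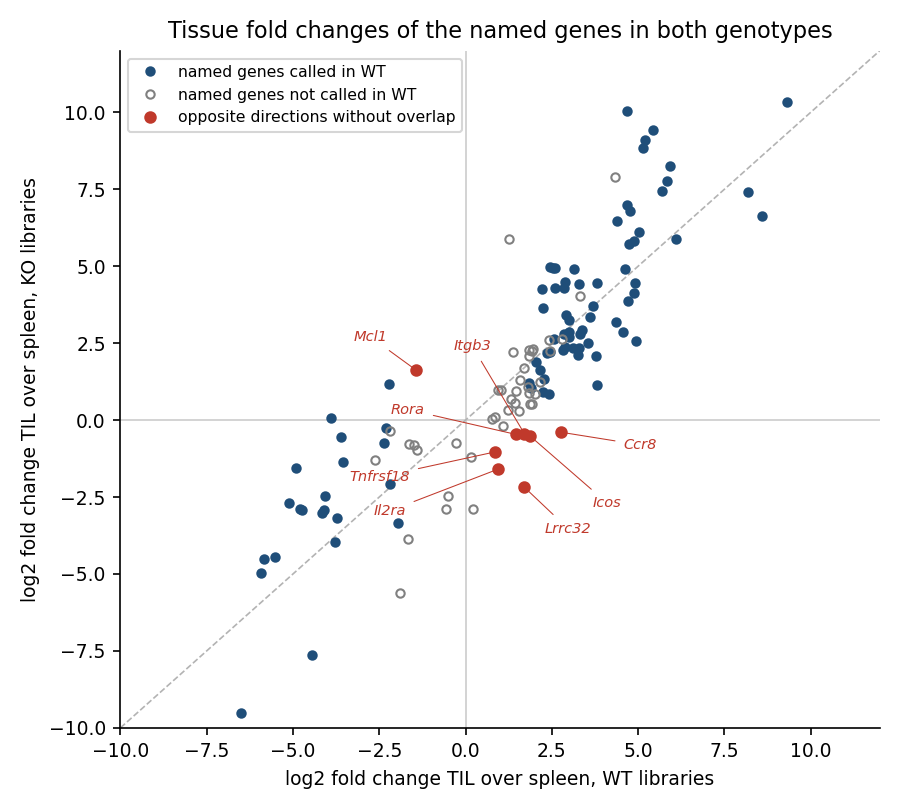
Log2 fold change of TIL over spleen in the WT libraries (x axis) and in the KO libraries (y axis) for the 134 genes that the naming rule gives, with a count in each group, with 1 point per gene and a dashed line of equality. The sign is the same in both genotypes for 121 of them, and the 8 red genes lie in opposite directions without overlap in either genotype. The shares of all genes with the same or the opposite sign were not counted.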

How the data were processed

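RNA-seq counts of the 4 WT libraries were analysed. The authors trimmed reads with Trimmomatic 0.36, aligned them to GRCm38 with STAR 2.5.2b, counted unique reads within exons with featureCounts (Subread 1.5.2), per the submitters' processing notes and methods, and deposited raw counts per gene. Whether counting used strand is not given in the sources used here, so overlapping, antisense and near-identical genes (Hspa1a and Hspa1b, the granzyme and Oas genes, for example) are uncertain. The normalized table of the series was not used here. Counts of 4 libraries were fitted with edgeR 4.0.16 (quasi-likelihood test, TMM, filterByExpr; R 4.3.3, limma 3.58.1), with Benjamini-Hochberg adjustment over all genes tested, and called below 0.05 if the log2 fold change was above 1 or below -1. Such models stand in for exact tests, which cannot pass 0.05 with 2 against 2 libraries. The standard error is the fold change over the root of the F statistic. DESeq2 1.42.0 and the other settings of the closing section were alternatives. The libraries, the 33 gene lists and the tests were chosen with earlier results of these data known. Named genes are the study's genes, up to 6 members per list by adjusted p, the 15 genes higher and 15 lower that rank first by adjusted p and do not overlap (higher ones at 1 CPM or more in both splenic libraries, outside lists of other cell types, receptor segments and provisional gene names) and 5 higher ones under 1 CPM there. Other list members were named after their values were seen. Promoters were matched by symbol, the first entry of each, for 10469 of 16427 genes. Bases in a GENCODE exon were left out of those shown. Some genes that meet the naming rule are not reported here. The tests were tested on simulated data.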

Additional observations from a re-analysis of the deposited data

Results flagged for a closer look

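For 12 of the genes named, all libraries of one genotype moved one way between the tissues and all libraries of the other moved the opposite way. Cxcr3, Nrarp, Jund and Dusp2 of these are outside the naming rule and were named after their values were seen. The share of such genes over all genes was not counted. Over all genes tested, TIL lay above spleen without overlap for 25.4% in WT and 31.3% in KO, and below for 26.8% and 32.6%. The difference of the log2 fold changes (KO minus WT) was tested as an interaction over all 8 libraries, and none passed an adjusted p of 0.05 in edgeR's test, where the smallest adjusted p of any gene was 0.164. Ccr8 was at 850.5 and 943 CPM in WT TIL and 152 and 113 CPM in WT spleen, and at 85.9 and 55.1 CPM in KO TIL and 93.8 and 91.4 CPM in KO spleen, a difference of -3.17 (edgeR adjusted p = 0.177). Icos was at 1396 and 1639 CPM in WT TIL and 419.7 and 406 CPM in WT spleen, and at 298 and 388 CPM in KO TIL and 549.8 and 439.8 CPM in KO spleen, a difference of -2.42 (edgeR adjusted p = 0.234). For Lrrc32 the difference was -3.88 (edgeR adjusted p = 0.269), with 36.6 and 8.78 CPM in KO TIL and 97.5 and 106 CPM in KO spleen. For Il2ra it was -2.55 and for Tnfrsf18 -1.91 (edgeR adjusted p of 0.269 and 0.486). For Rora it was -1.94 and for Itgb3, an integrin chain, -2.16 (edgeR adjusted p of 0.269 and 0.362). For Cxcr3 it was -2.28 (edgeR adjusted p = 0.329). The other 4 lay lower in WT TIL and higher in KO TIL. Dusp2 was at 185 and 197 CPM in KO TIL and 47.6 and 36.8 CPM in KO spleen, a difference of 4.72 (edgeR adjusted p = 0.164), for Jund it was 2.96 and for Nrarp 4.07 (edgeR adjusted p of 0.177 and 0.364). Mcl1, a survival factor, was at 913 and 306 CPM in KO TIL and 221 and 175 CPM in KO spleen, a difference of 3.02 (edgeR adjusted p = 0.270). Cd4, a T cell core gene, had a log2 fold change of -3.11 in KO without passing (edgeR adjusted p = 0.0571), and the part of the share of T cells in these values was not tested.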

How the results depend on the processing

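The number of genes called in WT was 981, and was 1805 by DESeq2 (Wald test), 1922 without a filter on low counts and 213 to 1401 with 1 library left out. It was 975 with DESeq2's size factors, 910 with scaling to the T cell core genes and 672 at a mean of at least 50 counts (449 higher). With all 8 libraries in the fit it was 671 (433 higher), and above 2 in absolute log2 fold change it was 930. It was 993 without the members of the other cell type lists and receptor segments, with 16170 genes tested. That setting keeps genes of other cells that are on no list. With the gene length trend removed, a setting chosen after seeing the data, it was 1113. The scaling to the T cell core genes moved the median log2 fold change to -0.136. The share called higher was 68.7%, but 80.8% without splenic replicate 2 and 83% without TIL replicate 2. In KO the number was 228, and was 3813 with DESeq2, 3183 without a filter and 0 to 4958 with 1 library left out, where edgeR's 0 without KO spleen replicate 1 or 2 stood beside 2688 and 2712 genes at an unadjusted p under 0.05. With the replicate number as a block, 1463 genes were called in WT (520 lower) and 192 in KO. Whether the numbers pair samples is not given. Same-numbered libraries correlated at -0.0349 in their deviations from the group means, and crossed ones at 0.0349. With 2 libraries per tissue these deviations mirror each other, so the value cannot show whether the numbers mark pairs. Direction turned for 5 of the genes named, none of which had passed: Cd3e without TIL replicate 1 (-0.586 to 0.0146 with 1 library left out), C1qa without splenic replicate 2 (-1.78 to 1.35), Ebi3 without TIL replicate 2 (-0.0868 to 0.407), Ikzf4 without splenic replicate 2 (-0.0435 to 0.572) and Bcl6 without splenic replicate 1 (-0.863 to 0.882). Of 2378 values of single genes under the alternatives, 2015 kept their direction and side of the threshold, 199 lost the call and 159 gained it, and of 792 counts of list members 587 stayed within 1.5 times. In counts simulated for this comparison, with 200 genes shifted by 3 (log2), edgeR recovered 79.5% of these and called 10 unchanged genes of 15859 tested, and DESeq2 recovered 93.5% and called 52 of 16427 tested. The floors of detection cover counting error only, whereas the standard errors come from the fit and take in the spread between libraries.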
